A study of Arabidopsis thaliana with 6 samples.

Results

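Class III peroxidases are haem enzymes that plants secrete into the cell wall and the apoplast, the space outside the plasma membrane. They use hydrogen peroxide to oxidise phenolic compounds, which couples monolignols into lignin and cross-links wall polymers, and they can also produce reactive oxygen species. In roots, members of the family are known for work in lignified barriers, root hair growth, wound and pathogen responses, and the control of cell elongation. The 10 genes described here are PRX4, PRX5, PRX33, PRX34, PRX37, PRX38, PRX52, PRX53, PRX62 and PRX71, taken by locus, out of 32627 genes measured. They were picked with their differences between lit and dark roots known, so those differences are a description. No p-value is given for a member. Counts of members past a test are given below, but nothing is read from them. The family list holds 73 loci, of which 72 were on the array: these 10 and 62 others.

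Roots of Arabidopsis thaliana were profiled on 6 one-colour NimbleGen arrays, 3 for plants whose roots grew in darkness (root_dark) and 3 for plants whose roots were lit (root_light). Seedlings were 12 days old, on Murashige and Skoog medium below full strength, and every shoot was lit with white light (75 µmol/m2/s). As labelled, the groups differed in the illumination of the root alone, and the lit roots were the control. Each array came from a separate plate, and the sources used here do not give the accession, any transgene or the number of plants per plate. Values are log2 expression values, on which a difference of 1 is a doubling, and differences are given as light minus dark.

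Array values correlated at Pearson r of 0.9885 to 0.9954 between arrays of 1 group and 0.9807 to 0.9892 otherwise, taken over transcript models, not over independent samples. Light replicate 3 was the array farthest from its group. Without it, the member differences moved by -0.11 to 0.04 and their median went from 1.52 to 1.49. Groups already apart cannot come to overlap when an array is left out, so nothing is read from their order. The remaining light arrays of PRX34, 15.76 and 15.77, lay below its dark arrays, 15.78 to 15.81. The 8 root markers averaged 13.52 to 13.72 per array. The dimmest of them, NRT2.1, averaged 10.26 in dark arrays and 11.19 in light arrays. The 8 shoot markers averaged 8.40 to 8.53 in dark arrays and 8.34 to 8.53 in light arrays. Of these, 5 were under 8 in both groups, whereas KNAT1, CER6 and AS2 were brighter. Their means were 11.69, 11.64 and 9.64 in dark arrays and 12.82, 11.65 and 9.41 in light arrays. The median difference of the root markers was -0.20. Light arrays lay wholly below dark arrays for 4 of the 8 and wholly above for 1, beside 16.2% and 12.0% of all genes. That one, NRT2.1, was the one root marker past limma's test, with a rise of 0.93 that was lost in 6 of 9 refits (without each array, with a replicate block, a signal filter, or a trend and robust variance prior). Of the shoot markers, limma called KNAT1 higher by 1.13, lost in 4 of 9 refits, and STM lower, with a difference of -0.84, lost in 7 of the 8 refits that held it. Of all genes, limma called 3.27% higher and 2.46% lower. The part of these markers in the results below was not tested. The top of the scale was 15.92, and a gene near it has little room to read higher. In whole roots, a change in the share of a cell type and a change in RNA per cell cannot be told apart.

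Of the 10 members, 8 read over 1 log2 unit higher in lit roots, from 2.30-fold for PRX4 to 5.21-fold for PRX53. PRX71 read slightly higher and PRX34 did not separate. All 3 light arrays lay above all 3 dark arrays for 9 of the 10, where 12.0% of all genes showed that order. In limma, 8 of the 10 were higher at an adjusted p under 0.05, beside 3.27% of all genes, and since the members were chosen on this contrast nothing is read from either count. Without dark replicate 2 the limma count was 5.

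**Figure D1:**
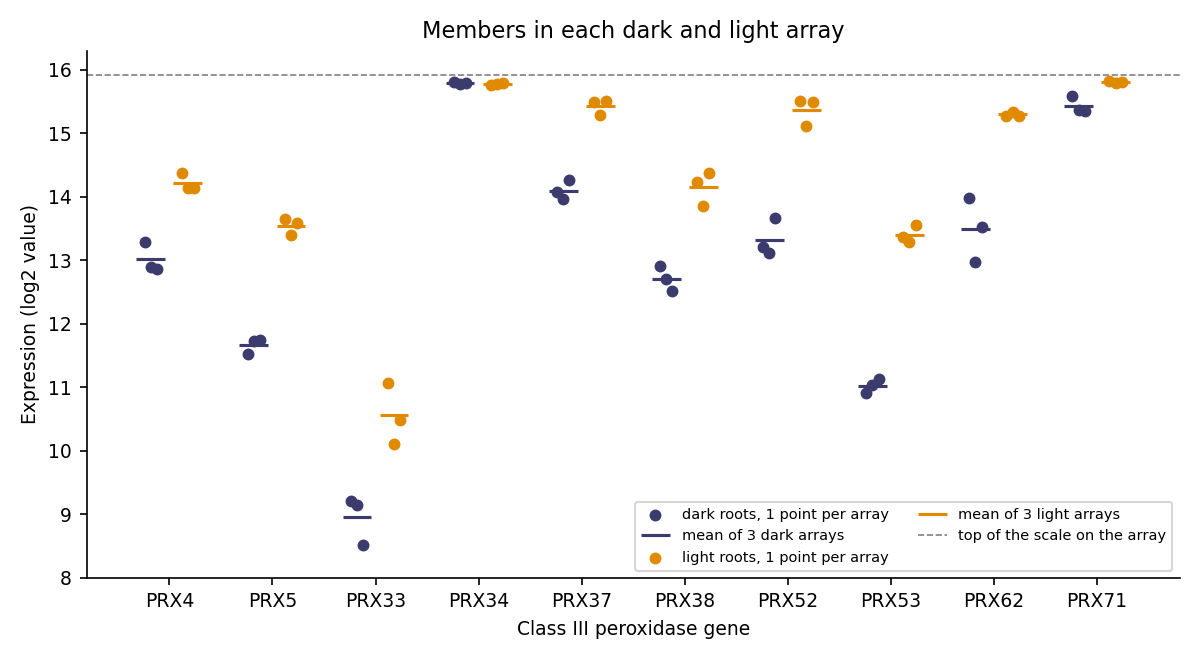
Log2 expression values (y axis) of the 10 members (x axis), with 1 point per array, dark roots in blue and lit roots in orange, short lines for the mean of 3 arrays and a dashed line at the top of the scale, 15.92. Light points lie above dark points for every member except PRX34, whose 6 points lie together just under the dashed line.

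PRX33 and PRX34 encode closely related enzymes known for the apoplastic oxidative burst after pathogen elicitors and for a part in root elongation. PRX33 (AT3G49110) read 9.21, 9.15 and 8.51 in dark replicates 1 to 3 and 11.07, 10.11 and 10.49 in light replicates 1 to 3. The lowest light array was 0.90 above the highest dark array, although the spread was wide in both groups (SD 0.39 in dark and 0.48 in light, n = 3). The difference was 1.60 (SE 0.30), or 3.03-fold. PRX34 (AT3G49120) read 15.81, 15.78 and 15.79 in dark arrays and 15.76, 15.77 and 15.79 in light arrays. Its groups overlapped, the difference was -0.02 (SE 0.06), and its light mean was 0.15 below the top of the scale. The RefSeq gene table places 1 protein-coding gene between them, and probes of such close relatives may read each other's transcripts. A rise of PRX34 beyond that distance could not be read on this scale.

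PRX52 and PRX4 are known for lignin formation in the stem, and PRX53, an anionic peroxidase, has been studied in the same process. PRX53 (AT5G06720) had the largest difference of the 10. It read 10.91, 11.03 and 11.13 in dark arrays and 13.36, 13.29 and 13.56 in light arrays, a gap of 2.16 between the groups. The difference was 2.38 (SE 0.11), or 5.21-fold, and ranked 141 of 37118 transcript models from the largest rise downwards. PRX52 (AT5G05340) read 13.21, 13.11 and 13.66 in dark arrays and 15.51, 15.12 and 15.49 in light arrays. Its groups were 1.46 apart and its difference was 2.05 (SE 0.19), or 4.13-fold, with a light mean 0.55 below the top of the scale.

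PRX4 (AT1G14540) and PRX5 (AT1G14550) lie side by side on chromosome 1. PRX4 read 13.29, 12.89 and 12.86 in dark arrays and 14.37, 14.14 and 14.14 in light arrays, a difference of 1.20 (SE 0.15). PRX5 read 11.52, 11.73 and 11.74 in dark arrays and 13.65, 13.40 and 13.59 in light arrays, a difference of 1.88 (SE 0.11). Both genes had light arrays wholly above the dark ones, by 0.85 for PRX4 and 1.66 for PRX5, which is 2.30-fold and 3.69-fold between the means.

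PRX37 (AT4G08770), whose overexpression in Arabidopsis is known to stunt growth and raise wall-bound phenolics, lies beside PRX38 (AT4G08780) on chromosome 4. PRX37 read 14.07, 13.96 and 14.26 in dark arrays and 15.50, 15.29 and 15.51 in light arrays, a difference of 1.34 (SE 0.11). PRX38 read 12.91, 12.70 and 12.52 in dark arrays and 14.24, 13.86 and 14.38 in light arrays, a difference of 1.45 (SE 0.17). The neighbours differed by similar amounts, 2.53-fold and 2.73-fold, and neither had overlapping groups. The light mean of PRX37 was 0.49 below the top of the scale, against 1.76 for PRX38.

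PRX62 (AT5G39580) is known for root hair growth, in particular in the cold. It was the one member with a pair of transcript models. The brighter model read 13.98, 12.98 and 13.52 in dark arrays and 15.28, 15.33 and 15.28 in light arrays, a difference of 1.80 (SE 0.25), or 3.49-fold. The other model read 13.90, 13.06 and 13.37 in dark arrays and 15.27, 15.36 and 15.36 in light arrays, a difference of 1.89. Both models placed the light arrays far above the dark ones, with dark replicate 2 lowest in each. The brighter model had the widest dark spread of the members (SD 0.50, against 0.03 in light, n = 3), with a light mean 0.62 below the top of the scale.

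PRX71 (AT5G64120) is known for restricting growth and for lignin deposition after damage to the cell wall. It read 15.59, 15.36 and 15.35 in dark arrays and 15.82, 15.79 and 15.81 in light arrays. The groups were 0.20 apart and the difference was 0.37 (SE 0.09), or 1.30-fold. All 6 arrays lay within 1 of the top of the scale, with the light mean 0.11 below it. The small difference is thus measured where the scale leaves little room.

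Within groups, the members did not spread evenly over arrays. Light replicate 2 was the lowest light array for 8 of the 10 members, a tie included, with a mean deviation of -0.15 from the light mean, and light replicates 1 and 3 deviated by 0.10 and 0.05. Dark replicate 1 was the highest dark array for 6 members, with a mean deviation of 0.10, and dark replicates 2 and 3 deviated by -0.08 and -0.02. The SD of a member ranged from 0.02 to 0.50 in dark and from 0.02 to 0.48 in light. The gaps between groups exceeded these deviations for the 8 members with differences over 1. Those members were chosen on this contrast, so nothing is read from that.

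The rest of the family is what the choice of the 10 genes left. Limma's calls for it come from the fit over the whole array, and its counts describe what remained. Of the 62 other measured class III peroxidases, 9 rose in lit roots (14.5%, beside 3.27% of all genes), 1 fell (beside 2.46% of all genes) and 52 did not pass the test. Their median difference was -0.01, as was that of all genes. Light arrays lay wholly above dark arrays for 12 of the 62 and wholly below for 10, beside 12.0% and 16.2% of all genes. The RefSeq gene table holds no family name for most of these loci, which are given by locus. Their family membership rests on a list compiled by hand from general knowledge of the family, which the table could not check, and the count of 62 depends on it.

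AT5G64110 and AT5G19880, outside the 10, had larger differences than any member, and AT1G49570 came just below PRX53. AT5G64110 read 11.23, 11.41 and 11.56 in dark arrays and 14.46, 14.28 and 14.94 in light arrays. It rose by 3.16 (SE 0.19, adjusted p = 0.0014 in limma), or 8.94-fold. AT5G19880 read 8.49, 8.58 and 8.05 in dark arrays and 11.11, 11.07 and 11.45 in light arrays. It rose by 2.84 (SE 0.18, adjusted p = 0.00163 in limma), or 7.14-fold. AT1G49570 rose by 2.31 (SE 0.12, adjusted p = 0.00105 in limma), from 10.67, 10.80 and 10.98 in dark arrays to 13.16, 12.97 and 13.26 in light arrays. The gaps between the groups of these genes were 2.72, 2.49 and 1.99, wider than the spread within either group.

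The other rises among the named loci were smaller. AT5G06730 rose by 1.65 (adjusted p = 0.0014), AT2G18140 by 1.55 (adjusted p = 0.0204), AT5G19890 by 1.52 (adjusted p = 0.00396), AT2G18150 by 1.49 (adjusted p = 0.00202) and AT4G36430 by 1.02 (adjusted p = 0.00497), all in limma. AT2G34060, chosen after its values were seen, was the ninth, with a rise of 0.77 (adjusted p = 0.00886). The median of the 9 rises was 1.55, and 8 of them passed in each of the 9 refits. AT2G18140 did not pass without dark replicate 2, dark replicate 3 or light replicate 2, with adjusted p up to 0.0875.

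AT5G15180 was the only family gene that fell by limma's test. It read 15.13, 15.08 and 14.79 in dark arrays and 14.23, 14.20 and 13.96 in light arrays, a difference of -0.87 (SE 0.13, adjusted p = 0.0213). That call was lost without any 1 array other than dark replicate 3, with adjusted p up to 0.0931. AT3G03670, chosen after its values were seen, had a larger difference of -1.59 that did not pass (SE 0.55, adjusted p = 0.174), its light arrays spreading by 0.98 (SD, n = 3).

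**Figure D2:**
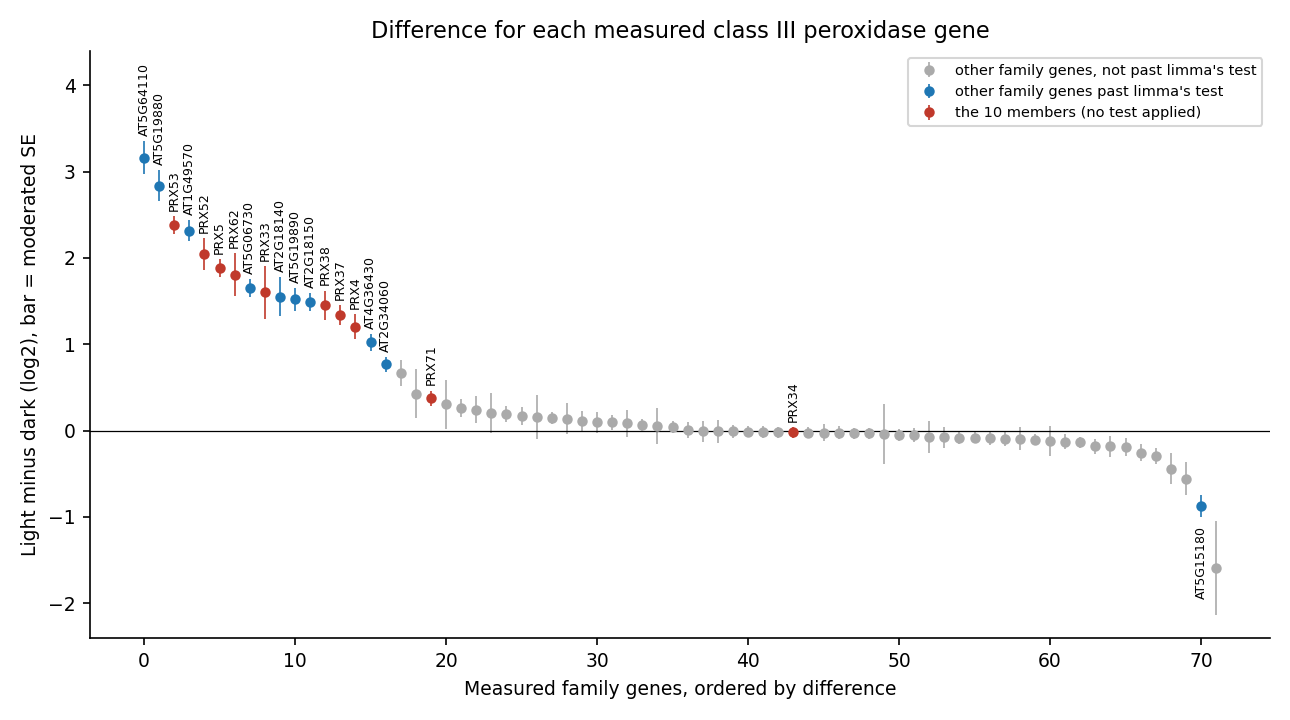
Light minus dark in log2 units (y axis, bars are limma's moderated SE) for the 72 measured class III peroxidase genes, ordered from the largest rise to the largest fall (x axis). Of the members in red, 8 are interleaved with the 9 other genes in blue that rose and PRX71 and PRX34 lie below those 9, AT5G64110 and AT5G19880 lie above all members, and AT5G15180 is the blue gene below 0.

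The named family genes outside the 10 that are known for developmental lignin did not pass the test. PER64 (AT5G42180), the peroxidase of the Casparian strip, differed by -0.08 (SE 0.08, adjusted p = 0.642 in limma). PRX72 (AT5G66390) and PRX25 (AT2G41480), both known for stem lignin, differed by -0.09 (SE 0.09) and -0.12 (SE 0.18). RCI3 (AT1G05260), known for peroxide production under potassium shortage, differed by -0.10 (SE 0.07). PER64, PRX72 and RCI3 had light means 0.28 to 0.36 below the top of the scale, where the scale leaves little room for a higher reading. The locus AT3G32980 of the family read 15.82 in dark and 15.81 in light, 0.11 below the top.

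Signal level moved with these results, and its part in them was not tested. Classes of mean signal over the 6 arrays were set after seeing the data, and their counts are a description. Of the other family genes, 27 lay within 1 of the top of the scale, where 1 rose, 22 had overlapping groups and differences ran from -0.56 to 1.02. In the middle class 8 of 26 rose and 1 fell, with differences from -0.87 to 3.16, and below 8 none of 9 passed. Of all genes, 0.679% of the brightest class rose, against 5.09% of the middle class and 0.855% of the dim class. PRX34 and PRX71 were in the brightest class and the 8 members with differences over 1 were all in the middle one.

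**Figure D3:**
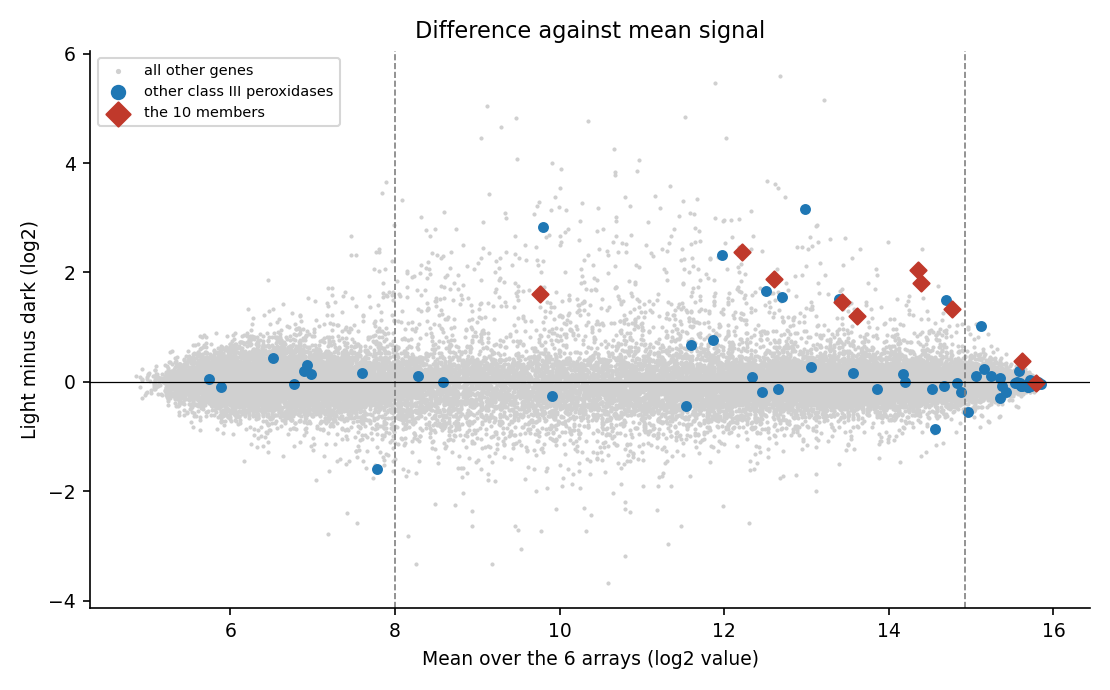
Light minus dark in log2 units (y axis) against the mean log2 value over the 6 arrays (x axis) for all genes in grey, the other class III peroxidases in blue and the 10 members as red diamonds. Dashed lines mark a mean of 8 and a mean 1 below the top of the scale, and PRX34 and PRX71 are the diamonds to the right of the second line.

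Many family genes lie next to each other. Counting runs of neighbouring protein-coding genes, 22 family loci formed 10 tandem groups, of which 4 held 6 of the 10 members. PRX53 and its neighbour AT5G06730 on chromosome 5 differed by 2.38 and 1.65, and AT5G06730 read 11.50, 11.79 and 11.76 in dark arrays against 13.33, 13.30 and 13.38 in light arrays. PRX71 shares a group with AT5G64110 and AT5G64100 on chromosome 5, and these differed by 0.37, 3.16 and -0.03. AT5G64100 read 15.82, 15.80 and 15.77 in dark arrays and 15.75, 15.75 and 15.80 in light arrays, so it and PRX71 were at the top of the scale while AT5G64110 between them was not.

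Away from the members, AT2G18140 and AT2G18150 rose together, as did AT5G19880 and AT5G19890. The groups of AT2G38380, AT4G37520, AT5G58390 and AT1G05240 with their neighbours held no gene past the test. Differences between neighbours were not tested, and cross-reading of probes between tandem copies cannot be told from parallel change here.

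**Figure D4:**
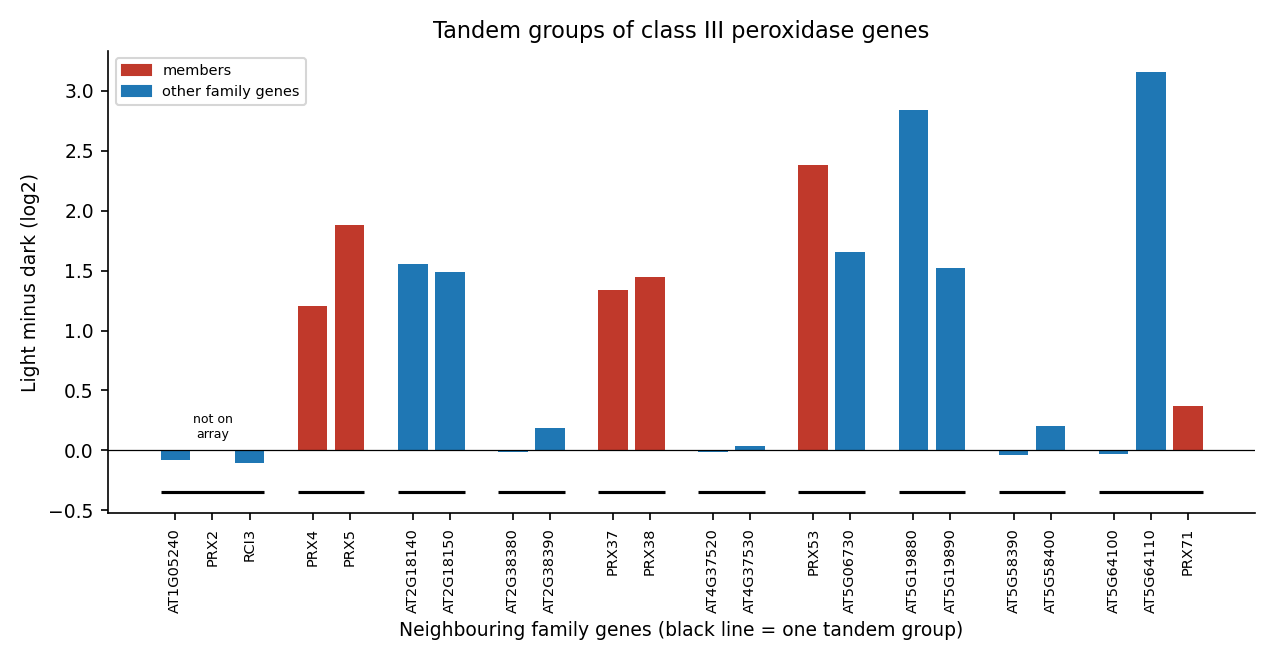
Light minus dark in log2 units (bars, from 0) for family genes in 10 tandem groups, each underlined in black, with members in red and other family genes in blue. Groups with PRX4, PRX37 and PRX53 have raised bars throughout, whereas in the last group AT5G64110 stands at 3.16 between AT5G64100 at -0.03 and PRX71 at 0.37, and 1 locus was not on the array.

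NADPH oxidases of the plasma membrane make superoxide outside the cell, which becomes the hydrogen peroxide that wall peroxidases use. Of 10 measured, limma called 0 higher (1 at an unadjusted p under 0.05) and 2 lower, beside 3.27% and 2.46% of all genes. The median difference of the 10 was -0.18. RBOHB (AT1G09090), known from seed after-ripening, fell from 15.24, 15.28 and 15.31 to 14.64, 14.40 and 14.05, a difference of -0.91 (adjusted p = 0.0318). AT4G11230 fell by 1.08 (adjusted p = 0.0427). These calls were lost in 5 and 6 of the 9 refits, with adjusted p up to 0.12 for RBOHB and 0.152 for AT4G11230.

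RBOHD (AT5G47910), the oxidase of the immune oxidative burst, read 14.73, 14.73 and 14.51 in dark arrays and 15.13, 14.99 and 15.06 in light arrays. Its groups were apart, and its difference of 0.40 (SE 0.09) did not pass (adjusted p = 0.0726 in limma). RBOHC (AT5G51060), the root hair oxidase, differed by -0.09 (SE 0.10), and RBOHF (AT1G64060), which serves the Casparian strip, by -0.24 (SE 0.08). Neither passed. UPB1 (AT2G47270), a transcription factor known to repress peroxidase genes at the root transition zone, read 14.30, 14.26 and 14.42 in dark arrays and 14.73, 14.64 and 14.99 in light arrays. Its difference of 0.46 (SE 0.11) did not pass either (adjusted p = 0.0871 in limma).

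Genes for scavenging peroxide inside the cell showed no calls. Limma passed 0 of 19 catalase, ascorbate peroxidase and glutathione peroxidase genes (3 higher and 1 lower at an unadjusted p under 0.05), with differences from -0.56 to 0.35 and a median of 0.08. It passed 0 of 7 superoxide dismutase genes (1 higher at an unadjusted p under 0.05), with differences from 0.05 to 0.33 and a median of 0.19. Of all genes, limma called 3.27% higher and 2.46% lower. APX1, CAT3, GPX6, FSD1, MSD1 and CSD1 had light means 0.08 to 0.33 below the top of the scale, where a rise can hardly be read. Other genes of both lists had more room.

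Laccases are copper enzymes that oxidise monolignols without peroxide. Of 17, 1 rose and 2 fell, beside 3.27% and 2.46% of all genes, with a list median of -0.17. LAC12 (AT5G05390) rose from 11.60, 11.60 and 11.36 to 12.79, 12.53 and 12.34, a difference of 1.03 (adjusted p = 0.0167 in limma). LAC2 (AT2G29130) fell by 0.70 (adjusted p = 0.0222) and LAC4 (AT2G38080), a laccase of stem lignin, by 0.40 (adjusted p = 0.0263). All 3 calls were lost in 4 or more of the 9 refits.

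Monolignol synthesis supplies the phenolic substrates of wall peroxidases. Of 17 genes, 1 rose (beside 3.27% of all genes) and limma called 0 lower (2 at an unadjusted p under 0.05), with a median of 0.01. CCOAOMT1, OMT1, PAL2, HCT and C4H had light means 0.10 to 0.18 below the top of the scale, and several others lay within 1 of it. A rise of such genes could hardly be read. The gene that rose was 4CL3 (AT1G65060), the coumarate ligase known to serve flavonoid synthesis. It read 9.47, 9.76 and 9.42 in dark arrays and 13.42, 13.19 and 12.79 in light arrays, a rise of 3.58 (SE 0.19, adjusted p = 0.00105 in limma). Of 9 Casparian strip genes, limma called 0 higher (0 at an unadjusted p under 0.05) and 1 lower, beside 2.46% of all genes. That gene, CASP5 (AT5G15290), had a difference of -0.88 (adjusted p = 0.0248 in limma). The CASP5 call was lost in 5 of the 9 refits, with adjusted p up to 0.103. Every gene of that list had a difference below 0, down from -0.01, and the median was -0.24.

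**Figure D5:**
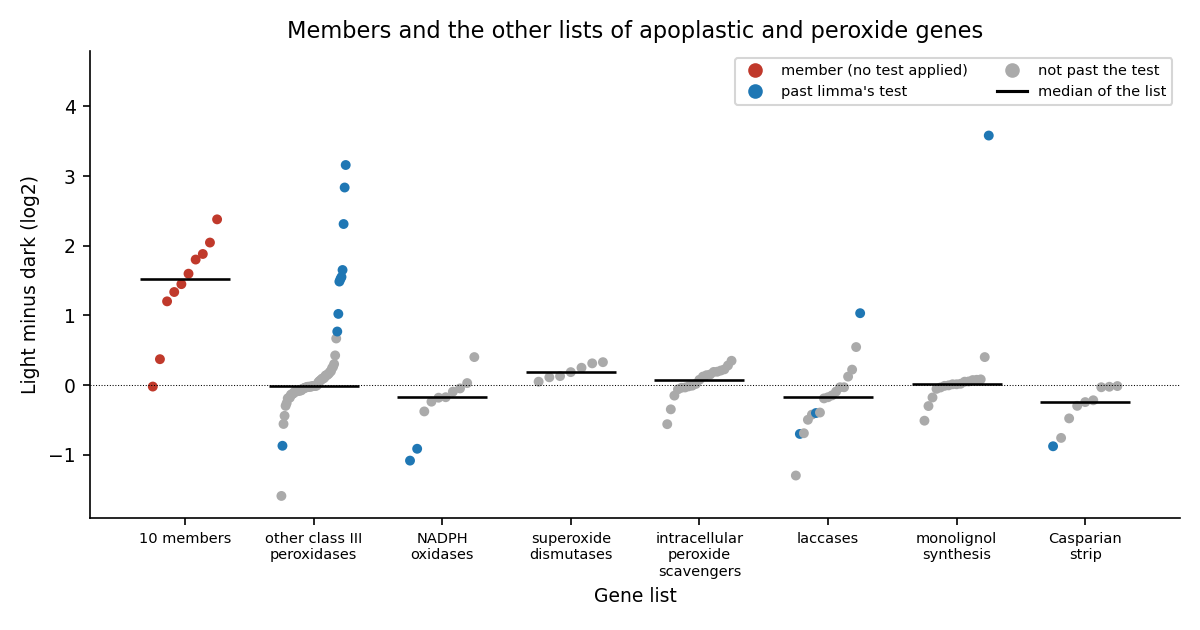
Light minus dark in log2 units (y axis) for the genes of 8 lists (x axis), 1 point per gene, with members in red, genes past limma's test in blue, other genes in grey and a black line at each list's median. The 10 members have a median of 1.52 and were chosen on this contrast. The medians of the other 7 lists lie between -0.24 and 0.19, with 4CL3 at 3.58 standing alone among the monolignol genes. Several genes of the monolignol, scavenger and dismutase lists lie near the top of the scale, with little room to read higher.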

How the data were processed

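Per the labels' protocols, root RNA was copied into cDNA, labelled with Cy3 and hybridised to NimbleGen arrays. The authors deposited log2 values for 37118 transcript models of 32627 loci. Their sorted values were equal within 0.01 across the 6 arrays, so they were quantile normalized before deposit and were used unchanged. The submitters' processing notes name limma. For background correction, probe summary and annotation release, nothing is stated in the sources used here, and array precision is limited by 3 arrays per group. Light minus dark was fitted over all models by limma's lmFit and eBayes (version 3.58.1, R 4.3.3; two-sided, Benjamini-Hochberg adjustment, threshold 0.05). The fit was also run on simulated data with independent noise and no top of the scale, and nothing is read from that run here. A gene is read by its model with the highest mean. Names come from the TAIR10.1 RefSeq gene table (31993 loci found), except PRX4, PRX5, PRX38 and PRX62, which were named with the choice of members. Its chromosomes and start positions gave the order of genes for the tandem groups. The members and lists were chosen with earlier results of these data known. The text names all members, up to 8 rises and 8 falls of the other family genes, 8 further family genes, UPB1 and 3 RBOH genes always, and up to 4 called genes per other list. Alternatives were leaving out each array, a replicate block, renormalizing, median centring, a signal filter at the 25th percentile, a trend and robust prior, and the mean of a gene's models. Promoter and protein sequences were not analysed here. Figures used Python 3.11.15 and matplotlib 3.10.9.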

Additional observations from a re-analysis of the deposited data

How the results depend on the processing

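The number of models higher in light was 1196, and it was 607 to 905 when 1 array was left out, 668 under the replicate block and 1852 under the trend and robust prior. The number lower was 903, and it was 158 to 473 without 1 array, 290 with the block, 1627 with models under the 25th percentile removed and 1879 with the trend and robust prior. Members called higher numbered 8, 5 to 7 without 1 array and 5 with the block. They numbered 9 with the signal filter and 9 with the trend and robust prior. Since the members were chosen on this contrast, nothing is read from these member counts. Other class III peroxidases called higher numbered 9, 8 to 9 without 1 array, and 10 with the filter or the prior. Those called lower numbered 1, 0 to 1 without 1 array and 2 with the trend and robust prior. Fits without an array or with the filter hold fewer samples or models, and the cause of these shifts was not tested. Without 1 array the difference ranged from 1.34 to 1.82 for PRX33 and from 1.55 to 2.05 for PRX62, the widest ranges of the members. The block, the filter and the prior leave a difference unchanged by construction. Dark and light arrays of the same replicate number correlated in their deviations at 0.01, 0.06 and 0.41, and those of different numbers at -0.40 to 0.36. These values do not settle whether the numbers mark pairs. The main fit did not use the numbers, which entered only as the block.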
